A study of Mus musculus with 9 samples.

Results

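Kinesins are ATP-driven motors that walk along microtubules or take their ends apart, and 45 of the 21909 gene symbols measured in cells of the mouse olfactory epithelium belong to this family. The 45 were taken by name: every symbol that begins with Kif and a digit, the C-terminal motors Kifc1, Kifc2 and Kifc3, and the kinesin light chains Klc1 to Klc4, which are cargo-binding partners of a motor and not motors themselves. By the job each protein is best known for, they were divided into 13 mitotic motors, 12 axonal and dendritic transport motors, 10 ciliary motors, 4 light chains and 6 other motors.

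The study followed cytosine modifications as olfactory neurons form, and its mRNA arm has 1 library from each of 3 sorted cell populations of main olfactory epithelium, from mice 4 weeks old. The HBC library (horizontal basal cells, the reserve stem cells of this epithelium) came from cells stained with a phycoerythrin-coupled antibody to CD54, the product of Icam1. The GBC library (globose basal cells and their neuronal progeny) came from Neurog1-EGFP mice, in which a proneural gene drives green fluorescent protein. The mOSN library (mature olfactory sensory neurons) came from OMP-ires-EGFP mice, in which the olfactory marker protein gene drives it. The strain background, the number of animals and whether cells of several animals were pooled were not given in the sources used here, and 3 samples of 5-hydroxymethylcytosine and 3 of 5-methylcytosine were not analysed here. RNA was polyadenylate-selected and amplified for 16 cycles in each case, but the HBC library was made with ScriptSeq and the others with the Illumina mRNA kit. Kit and cell population therefore cannot be told apart in any comparison with HBC. With 1 library per population no test between populations was possible, no difference has a replicate check, and fewer cells of a type and less RNA per cell cannot be told apart.

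A dividing cell uses kinesins to separate its spindle poles, align and carry its chromosomes and complete cytokinesis. A neuron no longer divides and uses other kinesins to haul vesicles, mitochondria and RNA down its axon and dendrite. An olfactory sensory neuron also carries a tuft of sensory cilia on its dendritic knob, where odorants are detected, and cilia are built by kinesin-2 motors that carry intraflagellar transport particles from base to tip.

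Values are FPKM, fragments scaled by the authors' software to transcript length and library size. The number of fragments per FPKM of the same gene differed between the libraries, with values given at the end. Intervals in parentheses are those the authors deposited and cover counting error only. Where values follow one another without a name, they stand in the order HBC, GBC, mOSN. A log2 ratio is log2((FPKM + 1)/(FPKM + 1)), which understates differences of low genes, and a gene was measured in a comparison when it had at least 1 FPKM in either library. The width of an interval gives the number of fragments behind a value, called implied fragments here, and these totalled 18123310 (HBC), 18086991 (GBC) and 16515790 (mOSN). Omp had 71.6 FPKM in HBC, 427 in GBC and 1487 FPKM in mOSN, and Neurog1 had 0.0538, 163 and 0.0189. The GBC library was rich in RNA of immature neurons, whose 6 markers summed to 1741 FPKM, against 461 FPKM for the 7 progenitor markers, of which Kit and Lgr5 had only 1.15 and 0.303 FPKM in GBC. All 9 macrophage markers exceeded 1 FPKM in HBC, with a sum of 3575 FPKM against 5.66 in GBC and 4.49 in mOSN, and the 7 lymphocyte markers summed to 90.4, 1.499 and 0.276 FPKM. The 5 Bowman gland markers summed to 216, 4.36 and 8.51 FPKM, and the 6 markers of fibroblasts and smooth muscle to 138, 10.6 and 7.90. The 7 HBC markers summed to 1111 FPKM in HBC. The 7 sustentacular cell markers summed to 1049 FPKM in HBC, of which Cbr2 gave 881, to 35.7 in GBC and to 134 in mOSN, where all 7 reached 1 FPKM. The part of those cells in the kinesin levels was not tested.

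The family summed to 178 FPKM in HBC, to 724 in GBC and to 834 in mOSN. The members that reached 1 FPKM numbered 26 for HBC, 36 for GBC and 26 for mOSN. Of all 21909 genes, 11388, 11395 and 11547 did. The composition of the sum differed between the libraries. Mitotic motors made up 4.34% of it in HBC, 3.02% in GBC and 0.367% in mOSN. Ciliary motors made up 8.53%, 24.5% and 26.0%. The highest level of a member was in GBC for 21 members, in mOSN for 17 and in HBC for 7. All 13 mitotic motors were among the 21, and 8 of the 10 ciliary motors were among the 17. The library of the highest level was not counted over all genes, so these counts have no background beside them.

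**Figure D1:**
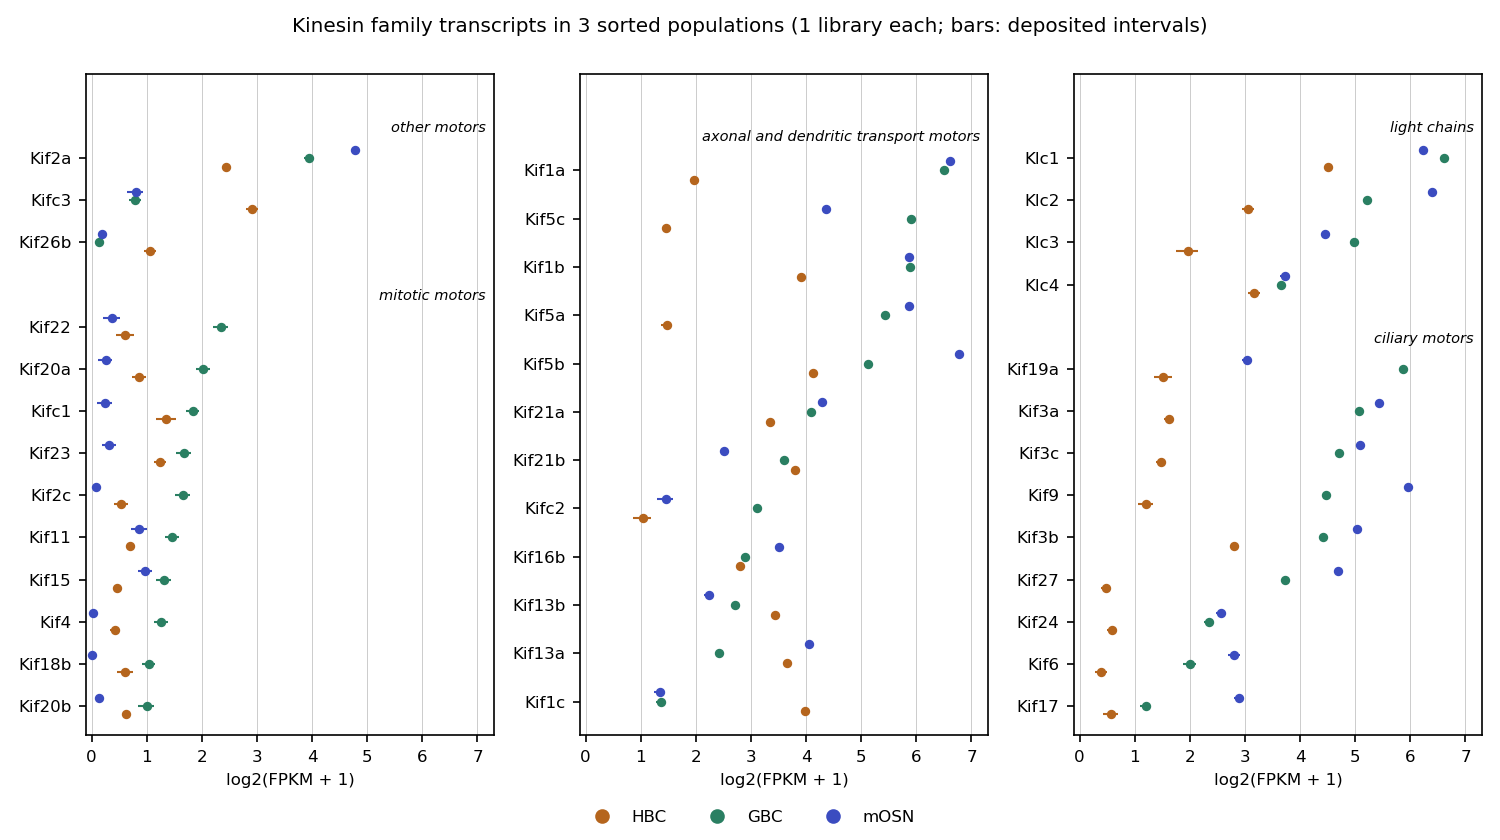
Level of each kinesin with at least 1 FPKM in a library, as log2(FPKM + 1), in HBC (brown), GBC (green) and mOSN (blue), with 1 point per library and the deposited interval as a bar. Mitotic motors lie low and are furthest right in GBC, while most ciliary motors and light chains have GBC and mOSN close together and HBC far to the left.

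Between mOSN and GBC, which share a kit, 36 of the 45 members were measured. Of these, 5 were at least 2-fold higher in mOSN (Kif17, Kif5b, Kif13a, Kif9 and Klc2), where 22.4% of all 12551 measured genes were. A further 11 were at least 2-fold lower, where 10.3% of all measured genes were. The 11 were 7 mitotic motors, the transport motors Kifc2, Kif5c and Kif21b, and the ciliary motor Kif19a. By the stricter rule of a 4-fold difference with 5 FPKM in the higher library, 0 members were higher and 1 was lower, Kif19a. Among the 8678 genes of at least 5 FPKM in either library, 7.12% were higher and 3.16% lower by this rule. The median log2 ratio was -0.01 for the measured members and 0.24 for all measured genes. The all-gene median depends on scaling, at -0.18 when the libraries are set to a common FPKM sum, 0.08 with median-of-ratios scaling and -0.07 with 1 fragment-to-FPKM conversion per gene. The common sum lies above the FPKM sum of every library, so the pseudocount and the filter of 1 weigh less there. With it 15107 genes were measured. Of the 4-fold calls over all genes, 69.3% were higher in mOSN with the deposited values, and 45.7%, 60.2% and 57.0% in the same order of alternatives.

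**Figure D2:**
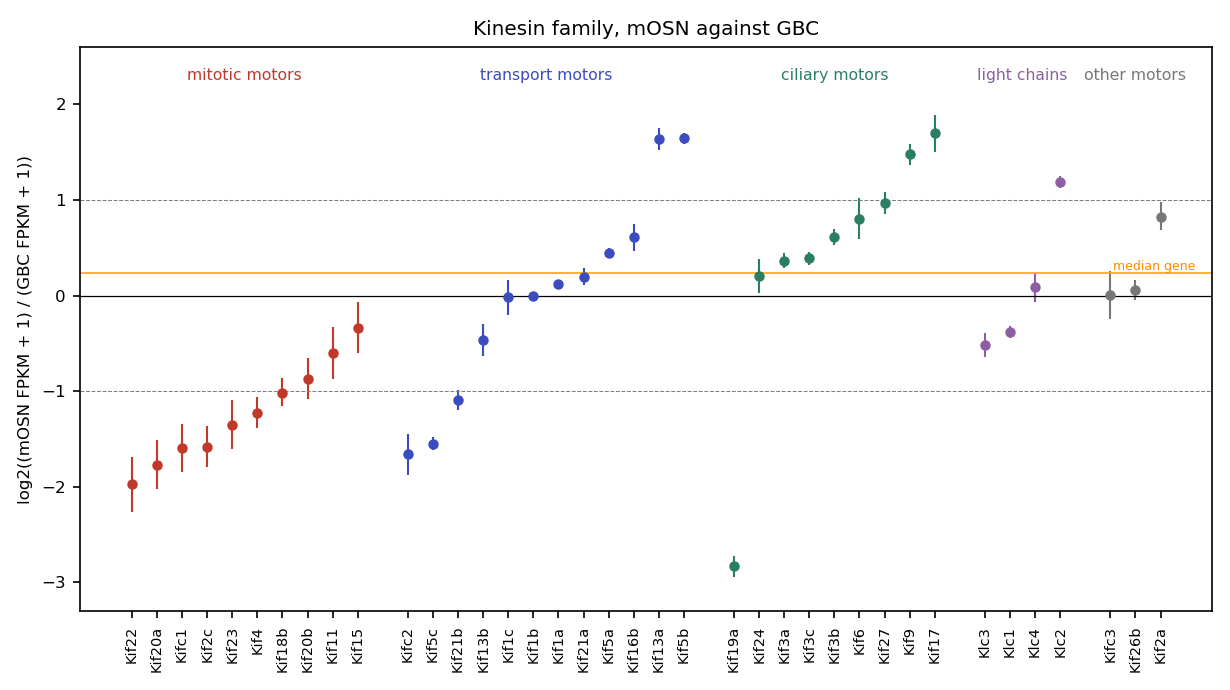
Log2 ratio of mOSN over GBC for the 36 measured members and 2 others, Kifc3 and Kif26b, that reach 1 FPKM in HBC only, grouped by role, with bars spanning the extremes that the deposited intervals of both libraries allow. Dashed lines mark 2-fold differences and the orange line the median of all measured genes at 0.24. Each of the 10 mitotic motors shown lies below 0, and the transport and ciliary motors spread over both sides.

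The 13 mitotic motors had low levels throughout, and none reached 5 FPKM in a library. They summed to 7.72 FPKM in HBC, 21.8 FPKM in GBC and 3.06 in mOSN. All 13 were lower in mOSN than in GBC, by FPKM and by implied fragments as a share of the library, and the deposited intervals did not overlap for 12. Of all 21909 genes, 9755 had less FPKM in mOSN than in GBC, 5156 of them with intervals apart. At least 1 FPKM was reached by 10 of them in GBC, by 0 in mOSN and by 2 in HBC, so those measured against mOSN passed only through GBC. The median log2 ratio of the 10 was -1.29 and that of all 13 was -1.02. The implied fragments behind the whole group numbered 1356 for HBC, 2297 for GBC and 298 for mOSN.

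Of the motors of chromosome movement, 4 reached 1 FPKM in GBC. Kif22, a chromokinesin that pushes chromosome arms away from the poles (chromosome 7, 134171245 to 134185934, mm9), had 0.528 FPKM in HBC (interval 0.352 to 0.704), 4.08 in GBC (3.63 to 4.53) and 0.293 FPKM in mOSN (0.151 to 0.435). Its log2 ratio of mOSN over GBC was -1.97, a 13.9-fold difference in plain FPKM. It was the mitotic motor with the highest level, only its GBC value exceeded 1 FPKM, and its HBC and mOSN intervals overlapped. Kif4, a chromokinesin that also organises the central spindle (chromosome X, 97821404 to 97922610), had 0.339 (0.263 to 0.414), 1.404 (1.202 to 1.61) and 0.0245 FPKM (0 to 0.0528), and its mOSN value rested on 3 implied fragments. Kif2c, a microtubule depolymerase of the kinetochore (chromosome 4, 116832241 to 116855229), had 0.452 (0.323 to 0.581), 2.16 (1.85 to 2.47) and 0.0521 FPKM (0 to 0.104). Kif18b, which limits astral microtubules (chromosome 11, 102766833 to 102786438), had 0.525 (0.372 to 0.679), 1.05 (0.883 to 1.22) and 0.0108 FPKM (0 to 0.0323), with 152 implied fragments in GBC and 1 in mOSN. These 4 shared the order of GBC, then HBC, then mOSN. Kif18a, a chromosome alignment motor, stayed below 1 FPKM in every library, at 0.424, 0.613 and 0.146 FPKM. Kif2b, a second kinetochore depolymerase, was listed at 0 in HBC and mOSN and had 3 implied fragments in GBC.

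The motors of cytokinesis had the same order. Kif20a, which brings the chromosomal passenger complex to the central spindle, had 0.821 FPKM in HBC (interval 0.664 to 0.978), 3.06 in GBC (2.71 to 3.42) and 0.193 FPKM in mOSN (0.0891 to 0.297), a log2 ratio of mOSN over GBC of -1.77. Kif23, the motor of centralspindlin (chromosome 9, 61765085 to 61794606), had 1.38 (1.202 to 1.55), 2.19 (1.900 to 2.49) and 0.253 FPKM (0.145 to 0.361). Kif20b, an abscission motor (chromosome 19, 34996848 to 35050221), had 0.549 (0.476 to 0.622), 1.005 (0.805 to 1.205) and 0.0942 FPKM (0.0398 to 0.149). The intervals of mOSN and GBC were apart for all 3. Kif14, a midbody motor, reached only 0.439 FPKM in GBC, against 0.1404 in HBC and 0.01999 in mOSN.

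The spindle-pole motors divided. Kifc1, which focuses the poles by moving towards microtubule minus ends (chromosome 17, 34012611 to 34027578), had 1.56 FPKM in HBC (1.24 to 1.88), 2.56 in GBC (2.27 to 2.85) and 0.181 FPKM in mOSN (0.0763 to 0.287). Its value is uncertain, since the near-identical copy Kifc5b is counted apart, at 0.513, 2.34 and 0.382 FPKM, and how the authors' software divided shared fragments was not given in the sources used here. Kif11, the tetramer that slides the poles apart (chromosome 19, 37450893 to 37496349), had 0.629 FPKM in HBC (interval 0.537 to 0.721), 1.76 in GBC (1.503 to 2.01) and 0.822 FPKM in mOSN (0.645 to 0.999). Kif15, which shares that task (chromosome 9, 122860199 to 122927851), had 0.384 (0.313 to 0.456), 1.48 (1.26 to 1.71) and 0.968 FPKM (0.786 to 1.15). Both are also known from neurons that no longer divide. They had the highest levels among the mitotic motors in mOSN, with 86 and 113 of the 298 implied fragments there, and their log2 ratios of mOSN over GBC were -0.60 and -0.34. The ratio of Kif11 depends on the setting: it was -1.25 with a common sum, and in plain FPKM it was 2.14-fold lower in mOSN. They were also the mitotic motors with more FPKM in mOSN than in HBC, by log2 ratios of 0.16 and 0.51, although that of Kif11 turned to -0.08 with a common sum, -0.18 with median-of-ratios scaling and -0.47 with 1 conversion per gene. That of Kif15 was 0.63, 0.21 and 0.04 under the same settings, on 117 implied fragments in HBC and 113 in mOSN.

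Against HBC, all 13 mitotic motors had more FPKM in GBC, and intervals were apart for 11. Of all 21909 genes, 12210 had more FPKM in GBC than in HBC, 9211 of them with intervals apart. By implied fragments, whose totals were nearly equal in these 2 libraries, the order held for 10 of the 13 motors. Of these, Kif11 was nearly level (187 in HBC and 192 in GBC), and Kif2b had only 0 and 3. The same count by fragments was not made over all genes. Kif18a (96 in HBC and 34 in GBC), Kif20b (226 and 101) and Kif23 (251 and 223) had more fragments in HBC, and their log2 ratios of GBC over HBC were -0.49, -0.49 and -0.11 with 1 conversion per gene. Over the 10 measured, 3 were at least 2-fold higher in GBC (Kif22, Kif20a and Kif2c), the median log2 ratio was 0.80, and none was 2-fold lower. Among all measured genes 34.6% were at least 2-fold higher and 23.4% lower, with a median of 0.46. The 7 markers of proliferating cells summed to 40.0 FPKM in HBC, 44.5 in GBC and 29.99 FPKM in mOSN. In GBC against HBC 3 of the 7 had more FPKM and 4 had less, with a median log2 ratio of -0.03. In mOSN against GBC 6 had less, and the exception was Pcna, a clamp of DNA replication and repair, with 18.6, 17.98 and 27.2 FPKM. Of the others, Mki67 had 4.27 FPKM in HBC, 6.54 in GBC and 0.2400 FPKM in mOSN, Top2a, a topoisomerase of dividing cells, had 3.44, 9.57 and 0.403, and Mcm2, a subunit of the replicative helicase, had 6.87, 4.18 and 0.382. The part of the number of dividing cells in the levels of the mitotic motors was not tested.

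The partners of these motors on the spindle were taken as a separate list of 26 genes. In mOSN against GBC 22 were measured, 15 were at least 2-fold lower (10.3% of all measured genes were) and none was 2-fold higher (22.4% were). At least 1 FPKM was reached by 22 in GBC and by 7 in mOSN, so the rest of those measured passed only through GBC. The median log2 ratio of the 22 was -1.33, beside -1.29 for the motors, and that of all 26 was -1.22. All 26 had less FPKM in mOSN, where 9755 of all 21909 genes did. Racgap1, the partner of Kif23 in centralspindlin, had 1.52 FPKM in HBC, 37.9 in GBC and 5.56 FPKM in mOSN, where Kif23 itself did not exceed 2.19. Cdca8, a subunit of the passenger complex that Kif20a carries, had 1.05, 6.25 and 0.451 FPKM. Aurka, the spindle-pole kinase, had 0.6501, 5.197 and 1.53 FPKM. Prc1, the microtubule bundler that binds Kif4, differed less, at 1.38, 6.095 and 4.48 FPKM. Cenpe, a kinetochore kinesin whose symbol does not begin with Kif and which is therefore no member, had 0.383, 2.03 and 0.127 FPKM.

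Since the mitotic motors were highest together in 1 library, their promoters were read for 2 short motifs of cell cycle promoters. These were TTTGAA or TTCGAA, the core of the cell cycle genes homology region, and CCAAT, both on either strand, in 300 bases from 250 before to 50 after the start, with RefSeq sequences of GRCm38.p6. A CCAAT and a TTTGAA can overlap by at most 1 base. A promoter was found for 35 of the 45 members. TTTGAA or TTCGAA stood in 10 of 12 mitotic promoters (83.3%) and in 19.4% of all 27025 promoters. CCAAT stood in 8 of 12 (66.7%) and in 37.9% of all. Both stood in 7 of 12 (58.3%) and in 7.70% of all. In the 7 transport motor promoters the counts were 0 and 1, though a second listed start of Kif1a holds 1 TTTGAA, and in the 9 ciliary promoters they were 2 and 5. A strict palindromic form of the X-box, the site of RFX factors in ciliary genes, stood in 0 of the 35 members' promoters and in 0.130% of all. A match is a description of letters, and binding was not measured here.

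Shown are 140 bases, from 110 before to 30 after the start, for 4 mitotic motors that hold both motifs, for Kif15, the mitotic motor with the highest level in mOSN, and for a ciliary and an axonal motor beside them, each 5′ to 3′ on the gene's strand with motif letters in capitals (TTCAAA and ATTGG are the same motifs on the other strand). Kif22 is at chr7:127042391-127042530 on the minus strand, Kif18b at chr11:102925095-102925234 on the minus strand, Kif11 at chr19:37376272-37376411 on the plus strand, Kif4 at chrX:100625955-100626094 on the plus strand and Kif15 at chr9:122950971-122951110 on the plus strand. Kif3a is at chr11:53567259-53567398 and Kif5c at chr2:49619176-49619315, both on the plus strand.
Kif22: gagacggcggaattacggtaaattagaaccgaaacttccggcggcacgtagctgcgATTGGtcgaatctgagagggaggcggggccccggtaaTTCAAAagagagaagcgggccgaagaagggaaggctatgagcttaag
Kif18b: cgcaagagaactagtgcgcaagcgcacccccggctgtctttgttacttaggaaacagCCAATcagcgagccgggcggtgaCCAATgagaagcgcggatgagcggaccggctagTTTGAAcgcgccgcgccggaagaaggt
Kif11: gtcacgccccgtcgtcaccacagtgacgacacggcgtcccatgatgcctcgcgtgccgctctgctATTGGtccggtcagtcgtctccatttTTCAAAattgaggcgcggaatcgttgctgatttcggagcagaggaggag
Kif4: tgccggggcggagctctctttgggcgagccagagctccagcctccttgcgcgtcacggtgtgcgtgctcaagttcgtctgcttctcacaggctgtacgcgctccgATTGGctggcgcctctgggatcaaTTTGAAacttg
Kif15: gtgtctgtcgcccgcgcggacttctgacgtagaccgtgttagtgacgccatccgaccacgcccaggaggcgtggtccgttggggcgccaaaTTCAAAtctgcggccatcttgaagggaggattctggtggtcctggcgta
Kif3a: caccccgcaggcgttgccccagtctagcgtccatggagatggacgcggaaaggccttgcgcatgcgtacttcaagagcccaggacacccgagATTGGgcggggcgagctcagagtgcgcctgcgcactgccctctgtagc
Kif5c: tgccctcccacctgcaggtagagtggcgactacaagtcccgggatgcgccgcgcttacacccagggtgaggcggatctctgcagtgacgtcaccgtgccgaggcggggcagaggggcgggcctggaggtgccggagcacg
In Kif22 and Kif11 the CCAAT begins 54 and 45 bases before the start and the TTTGAA 17 and 19 before it. Kif18b holds 2 copies of CCAAT and Kif4 holds 1 in these windows, Kif15 has the TTTGAA alone, Kif3a has CCAAT alone, and Kif5c has neither.

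Transport motors of the axon and dendrite held the largest part of the family sum, with 102 FPKM in HBC, 335 FPKM in GBC and 396 in mOSN. All 12 had at least 1 FPKM in every library. They did not differ in 1 direction between GBC and mOSN. Of the 12, 2 were at least 2-fold higher in mOSN (22.4% of all measured genes were), 3 were lower (10.3% were), and the median log2 ratio was 0.06. That median was -0.31, -0.09 and -0.27 under the 3 alternative scalings, each time below the median of all genes. Members of the same subfamily went in opposite directions.

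Kinesin-1, the general motor of anterograde axonal transport, is a dimer of heavy chains made from Kif5a, Kif5b or Kif5c, bound to light chains. Kif5b, the heavy chain found in most tissues, had 16.4 FPKM in HBC (interval 15.97 to 16.8), 33.9 in GBC (33.1 to 34.8) and 108 FPKM in mOSN (107 to 110.2), the highest value of any kinesin in any library. It was 3.19-fold higher in mOSN than in GBC (log2 ratio 1.65, and 1.25 to 1.46 under the alternative scalings). Kif5c, a neuron-enriched heavy chain (chromosome 2, 49474834 to 49630298), had 1.75 (1.61 to 1.897), 58.9 (57.97 to 59.9) and 19.5 FPKM (18.8 to 20.2), and was 3.02-fold lower in mOSN than in GBC. Kif5a, the other neuron-enriched heavy chain (chromosome 10, 126662751 to 126700419), had 1.77 (1.59 to 1.95), 42.2 (41.4 to 42.9) and 57.6 FPKM (56.5 to 58.8). Its log2 ratio of mOSN over GBC was 0.44, and -0.09 with 1 conversion per gene.

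The 3 heavy chains summed to 19.9 FPKM in HBC, 135 FPKM in GBC and 186 in mOSN. Kif5b was 82.3% of that sum in HBC, 25.1% in GBC and 58.4% in mOSN. Kif5c was 8.81%, 43.6% and 10.5%. Kif5a was 8.91%, 31.2% and 31.1%. The leading heavy chain was thus Kif5b, then Kif5c, then Kif5b again in the order HBC, GBC and mOSN. With 1 conversion per gene the shares of Kif5b were 90.2%, 23.7% and 57.7% and the order of leading chains was the same.

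The light chains, which select cargo, had a similar exchange. Klc1, the main neuronal light chain (chromosome 12, 112997060 to 113044986), had 21.8 FPKM in HBC (interval 20.8 to 22.9), 96.7 in GBC (95.1 to 98.4) and 73.9 FPKM in mOSN (71.9 to 75.9). Klc2 (chromosome 19, 5107746 to 5118408) had 7.303 (6.67 to 7.93), 35.97 (35.1 to 36.9) and 83.2 FPKM (81.3 to 85.03). Klc1 was the leading light chain in HBC and GBC and Klc2 in mOSN. Klc2 was 2.31-fold higher in mOSN than in GBC, but its log2 ratio of 1.19 was 0.83 with a common sum and 0.38 with 1 conversion per gene, while that of Klc1 went from -0.38 to -1.20. Their share of the light chain sum was less dependent on the setting, at 55.4% in GBC and 38.8% in mOSN for Klc1 (53.7% and 36.0% with 1 conversion) and 20.6% and 43.7% for Klc2 (22.9% and 46.7%). Klc3, best known from spermatids, had 2.895 (2.35 to 3.44), 30.4 (29.3 to 31.4) and 20.98 FPKM (19.8 to 22.2), and Klc4 had 7.997 (7.27 to 8.73), 11.5 (10.9 to 12.1) and 12.3 (11.5 to 13.1). The light chain sum over the heavy chain sum stood at 2.01 for HBC, 1.29 for GBC and 1.03 for mOSN with the deposited values. The order of the libraries in this ratio depends on the conversion. In HBC, Klc1 had 21.8 FPKM and Kif5b 16.4 as deposited, but 15.2 and 37.1 with 1 conversion per gene. The HBC ratio was then the lowest.

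**Figure D3:**
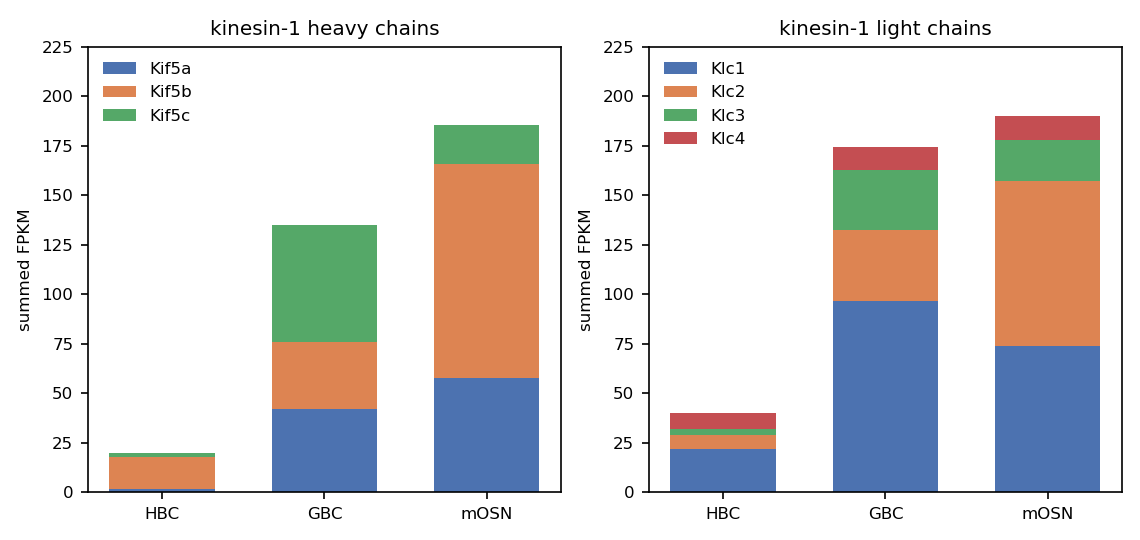
Summed FPKM of the kinesin-1 heavy chains Kif5a, Kif5b and Kif5c (left) and light chains Klc1 to Klc4 (right), as stacked bars with 1 bar per library. Kif5c is the largest heavy chain segment in GBC and Kif5b in HBC and mOSN, and Klc2 overtakes Klc1 in mOSN.

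The kinesin-3 motors carry vesicles. Kif1a, the motor of synaptic vesicle precursors and dense-core vesicles (chromosome 1, 94912033 to 94998442), had 2.93 FPKM in HBC (interval 2.71 to 3.14), 89.1 in GBC (88.03 to 90.1) and 96.9 FPKM in mOSN (95.6 to 98.2). Kif1b, which moves mitochondria and synaptic vesicle precursors (chromosome 4, 148550430 to 148681807), had 14.1 (13.7 to 14.4), 57.8 (56.9 to 58.6) and 57.5 FPKM (56.5 to 58.5), with overlapping intervals in GBC and mOSN. Kif1c, a widely expressed relative (chromosome 11, 70514050 to 70545472), had 14.8 (14.3 to 15.3), 1.58 (1.44 to 1.72) and 1.55 FPKM (1.37 to 1.73). Kif1a and Kif1c were thus nearly level between GBC and mOSN and opposite against HBC. Kif1c made up 46.5% of the 3 in HBC and 1.06% in GBC, and Kif1a 9.21% and 60.0%. The log2 ratio of Kif1a in mOSN over GBC, 0.12, was -0.25, -0.06 and -0.28 under the alternative scalings.

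Kif13a and Kif13b, endosomal and membrane-protein carriers, went apart. Kif13a, a recycling endosome motor (chromosome 13, 46844457 to 47025087), had 11.6 FPKM in HBC (interval 11.2 to 12.03), 4.37 in GBC (4.12 to 4.61) and 15.7 FPKM in mOSN (15.1 to 16.3), with GBC the lowest. It was 3.59-fold higher in mOSN than in GBC. Kif13b (chromosome 14, 65271368 to 65425133) had 9.89 (9.46 to 10.3), 5.52 (5.19 to 5.85) and 3.72 FPKM (3.41 to 4.02). Its level was highest in HBC and lowest in mOSN. Kif13a was 44.2% of the pair in GBC and 80.9% in mOSN. Kif16b, an early endosome motor (chromosome 2, 142444081 to 142727200), had 5.97 (5.67 to 6.27), 6.45 (6.07 to 6.83) and 10.4 FPKM (9.83 to 10.9).

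The Kif21 pair restrain microtubule growth as well as moving along them. Kif21a (chromosome 15, 90763707 to 90880379) had 9.19 FPKM in HBC (8.84 to 9.53), 15.9 in GBC (15.4 to 16.5) and 18.5 FPKM in mOSN (17.8 to 19.1). Kif21b (chromosome 1, 138027978 to 138074591) had 12.96 (12.5 to 13.4), 11.2 (10.9 to 11.5) and 4.73 (4.47 to 4.998), a log2 ratio of -1.09 for mOSN over GBC. With the deposited values their sum differed little, at 22.1, 27.1 and 23.2 FPKM, and the share of Kif21a in it was 41.5%, 58.8% and 79.6%. Both the sum and the shares depend on the conversion. With 1 conversion per gene Kif21a had 12.03, 16.95 and 14.6 FPKM and Kif21b 9.74, 15.01 and 4.14. Kif21a then led in every library, and its share rose only in mOSN. Kifc2, a minus-end-directed motor of neurons (chromosome 15, 76491071 to 76498626), had 1.05 (0.821 to 1.29), 7.61 (7.18 to 8.04) and 1.74 FPKM (1.47 to 2.003). It was highest in GBC and 4.38-fold lower in mOSN, the lowest log2 ratio of the transport motors (-1.65).

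Cargo adaptors of these motors were counted as a list of 23 genes. Between mOSN and GBC 22 were measured, 6 were at least 2-fold higher in mOSN (22.4% of all measured genes were), 1 was lower (10.3% were), and the median log2 ratio was 0.55 beside 0.06 for the transport motors. Sybu (syntabulin), which links kinesin-1 to syntaxin vesicles and mitochondria, had 0.673 FPKM in HBC, 2.08 in GBC and 9.29 FPKM in mOSN. Arl8b, the lysosomal GTPase that recruits kinesin-1 and Kif1 motors, had 18.2, 11.9 and 40.6 FPKM. Trak2, a mitochondrial adaptor, had 6.73, 6.53 and 18.3 FPKM. For comparison with the opposite motor, 26 genes of cytoplasmic dynein and dynactin were all measured, with 3 at least 2-fold higher in mOSN (22.4% of all measured genes were), none lower (10.3% were) and a median of 0.04. Pafah1b1 (Lis1), a regulator of dynein, stood apart at 16.5, 31.9 and 139 FPKM. The others named by size were the light chain Dynlt3 (21.1 FPKM in GBC and 62.9 FPKM in mOSN), the adaptor Bicd1 (2.89 and 7.13) and the dynactin subunit Actr10 (14.9 and 28.9).

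Ciliary motors summed to 15.2 FPKM in HBC, 177 FPKM in GBC and 217 in mOSN. By deposited FPKM 8 of the 10 were highest in mOSN, although the log2 ratio of mOSN over GBC was negative for Kif3c (-0.23) with 1 conversion per gene and for Kif24 (-0.12) and, barely, Kif3a (-0.0013) with a common sum. Kif19a was highest in GBC and Kif7 in HBC. Of all 21909 genes, 9635 had more FPKM in mOSN than in GBC. Of the 9 measured between mOSN and GBC, 2 were at least 2-fold higher in mOSN (22.4% of all measured genes were), 1 was lower (10.3% were) and the median log2 ratio was 0.61. That median lay above the median of all genes with the deposited values and under each alternative scaling, where it was 0.14, 0.43 and 0.43.

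Kinesin-2 drives the outward leg of intraflagellar transport as a heteromer of Kif3a with Kif3b and the adaptor Kifap3. Kif3c, which can pair with Kif3a in place of Kif3b, was counted with the ciliary motors here, and its part in cilia was not tested. Kif3a (chromosome 11, 53380881 to 53417746) had 2.06 FPKM in HBC (interval 1.91 to 2.22), 32.6 in GBC (31.7 to 33.6) and 42.3 FPKM in mOSN (41.1 to 43.5). Kif3b (chromosome 2, 153117152 to 153159125) had 5.98 (5.67 to 6.28), 20.3 (19.7 to 21.02) and 31.6 FPKM (30.7 to 32.6). Kif3c (chromosome 12, 3365132 to 3406494) had 1.78 (1.61 to 1.94), 24.96 (24.4 to 25.5) and 33.04 FPKM (32.2 to 33.9). These 3 were low in HBC and within 2-fold of each other between GBC and mOSN. Kif3b led in HBC with 60.9% of their sum, and Kif3a led in GBC (41.9%) and mOSN (39.5%). Kif3b and Kif3c together stood at 1.39 times Kif3a in GBC and 1.53 times in mOSN. Kifap3 had 4.300 FPKM in HBC, 27.3 in GBC and 65.8 FPKM in mOSN, a log2 ratio of 1.24 for mOSN over GBC, larger than that of any of the 3 motors it binds.

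Kif17, the homodimeric kinesin-2 known for carrying the olfactory cyclic nucleotide-gated channel into cilia (chromosome 4, 137818166 to 137857888), had 0.483 FPKM in HBC (interval 0.339 to 0.628), 1.297 in GBC (1.14 to 1.45) and 6.44 FPKM in mOSN (5.95 to 6.94). Its log2 ratio of mOSN over GBC, 1.70, was the largest of the family, and was 1.09 with 1 conversion per gene, when Kif9 (1.44), Kif5b (1.25) and Kif13a (1.25) had larger ones. In absolute terms it remained low, below each of Kif3a, Kif3b and Kif3c in mOSN.

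Motors known from motile cilia were also present. Kif9 (chromosome 9, 110379462 to 110427678) had 1.31 FPKM in HBC (interval 1.095 to 1.52), 21.2 in GBC (20.2 to 22.2) and 60.8 FPKM in mOSN (58.98 to 62.6), and was the ciliary motor with the highest level in mOSN. Kif27 (chromosome 13, 58388877 to 58456223) had 0.391 (0.309 to 0.472), 12.3 (11.7 to 12.9) and 24.9 FPKM (24.04 to 25.8). Kif6 (chromosome 17, 49754497 to 50049172) had 0.316 (0.221 to 0.412), 2.999 (2.69 to 3.31) and 5.99 FPKM (5.503 to 6.48). The 3 shared the order mOSN, GBC, HBC. Kif24, a depolymerase that restrains cilium assembly, had 0.507, 4.11 and 4.902 FPKM. Kif7, the Hedgehog regulator at the tip of primary cilia, stayed below 1 FPKM in every library, with 0.486, 0.208 and 0.0129 FPKM, and its mOSN value rested on 2 implied fragments.

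Kif19a departed from the rest. This depolymerase sets the length of motile cilia (chromosome 11, 114626703 to 114651889), and it had 1.87 FPKM in HBC (interval 1.56 to 2.18), 57.3 in GBC (56.3 to 58.4) and 7.21 FPKM in mOSN (6.72 to 7.69). It was the ciliary motor with the highest level in GBC and 7.95-fold lower in mOSN, a log2 ratio of -2.83 that ranged from -2.97 to -3.45 under the alternative scalings. The values rest on 12602 implied fragments in GBC and 883 in mOSN. Among 9 markers of motile multiciliated cells, which summed to 7.59 FPKM in HBC, 86.6 FPKM in GBC and 183 in mOSN, 7 had more FPKM in mOSN than in GBC, 5 of them at least 2-fold, and 2 had less. Among all measured genes 22.4% were at least 2-fold higher and 10.3% lower. The tektin Tekt2 had 0.1597, 18.99 and 1.22 FPKM, the single marker at least 2-fold lower, and the master regulator Foxj1 had 2.81, 14.4 and 45.8. The part of multiciliated cells in the levels of Kif19a, Kif9, Kif27 and Kif6 was not tested.

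The intraflagellar transport machinery gave the setting of these motors. All 18 genes of the list were measured between mOSN and GBC, 4 were at least 2-fold higher in mOSN (22.4% of all measured genes were), none was lower (10.3% were) and the median log2 ratio was 0.55, beside 0.61 for the ciliary motors. Dync2h1, the heavy chain of the dynein that returns the particles to the base, had 1.74 FPKM in HBC, 9.58 in GBC and 30.8 FPKM in mOSN. Traf3ip1, a particle subunit also named Ift54, had 2.48, 13.5 and 41.4 FPKM. The particle subunits Ift80 (2.75, 26.4 and 64.3 FPKM) and Ift74 (1.69, 14.8 and 32.5 FPKM) had the same order.

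Of the 6 remaining motors, 2 exceeded 5 FPKM. Kif2a, a depolymerase that trims axon branches and also acts at spindle poles (chromosome 13, 107750665 to 107812194), had 4.42 FPKM in HBC (interval 4.15 to 4.69), 14.4 in GBC (13.5 to 15.3) and 26.4 FPKM in mOSN (25.2 to 27.5). Kifc3, a minus-end-directed motor of epithelial junctions and apical transport (chromosome 8, 97623728 to 97666440), had 6.53 (5.96 to 7.11), 0.7303 (0.598 to 0.863) and 0.742 FPKM (0.5696 to 0.915). Kif2a was highest in mOSN and Kifc3 in HBC. Kif26b, a non-motile relative, had 1.08 FPKM in HBC, 0.0928 in GBC and 0.139 FPKM in mOSN. Kif26a, its closest relative, stayed below 1 FPKM everywhere and was highest in HBC (0.667 FPKM). Kif12 and Kif4b, a copy of Kif4, were listed at 0 in HBC and mOSN and had 3 and 1 implied fragments in GBC.

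In GBC against HBC, where kit and population cannot be told apart, 38 members were measured. Of these 21 were at least 2-fold higher in GBC (34.6% of all 13736 measured genes were) and 3 were at least 2-fold lower (23.4% were). The 3 were Kif1c, Kif13a and Kifc3. By the 4-fold rule 12 were higher and 2 lower, Kif1c and Kifc3, where 15.5% and 16.5% of the 9101 genes of at least 5 FPKM in either library were. The median log2 ratio was 3.22 for the 9 ciliary motors measured, 2.13 for the 4 light chains, 0.87 for the 12 transport motors and 0.46 for all measured genes. Of the 9 ciliary motors, 5 reached 1 FPKM in HBC and the rest passed the filter only through GBC. The median of all 10 ciliary motors was 2.49. All-gene medians under the alternative scalings were 0.44, -0.11 and 0.24. Kif5c (33.6-fold), Kif19a (30.7-fold), Kif27 (31.4-fold), Kif1a (30.4-fold) and Kif5a (23.8-fold) had the largest ratios of FPKM.

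In mOSN against HBC 30 members were measured, 18 were at least 2-fold higher in mOSN (40.4% of all 14092 measured genes were) and 5 lower (23.0% were). The 5 were Kif1c, Kifc3, Kif21b, Kif13b and Kifc1. By the 4-fold rule 14 were higher and 2 lower, where 24.0% and 15.8% of the 9779 genes of at least 5 FPKM in either library were. All 9 ciliary motors measured were at least 2-fold higher (Kif19a at 0.90 with median-of-ratios scaling), with a median of 2.41. Of these 9, 5 reached 1 FPKM in HBC, and the rest passed the filter only through mOSN. Kif7, which was not measured, went the other way, and the median of all 10 was 2.37. The transport motors had a median of 0.82, beside 0.63 for all genes (0.12, -0.10 and 0.12 under the alternative scalings). The 3 comparisons share libraries, so their counts are not independent of one another.

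The number of fragments per FPKM of a given gene differed between the libraries, and this bears on all 3 comparisons. With 1 conversion per gene the log2 ratio changed sign for 6 of 38 members in mOSN against GBC. It did so for 6 in GBC against HBC and for 1 in mOSN against HBC. In mOSN against GBC, Klc3 went from -0.51 to -1.30 and Klc4 from 0.09 to -0.54, and 4 members became at least 2-fold different while 1 ceased to be. Among the 30 members with at least 30 implied fragments in each library, the GBC conversion over that of HBC ran from 0.281 for Kif2a to 2.91 for Klc3, with a median of 1.07. For mOSN over GBC it ran from 0.486 for Kif17 to 1.12 for Kif2a, with a median of 0.673. Kif2a had 1094 implied fragments in HBC and 1002 in GBC, although its FPKM was 3.26-fold higher in GBC, and with 1 conversion per gene its log2 ratio went from 1.51 to -0.11. Kif5b had 6838 and 6545 implied fragments, and its log2 ratio went from 1.01 to -0.06. The higher FPKM of these 2 in GBC than in HBC therefore depends on the conversion, whose origin was not tested. Klc3, Klc2 and Klc1 moved the other way, to 4.12, 3.35 and 2.94 from 3.01, 2.15 and 2.10. Kif21b changed sign, from -0.19 to 0.58. Kif1a (4.52 and 4.84), Kif5c (4.44 and 4.24), Kif5a (3.96 and 4.31), Kif19a (4.35 and 5.19), Kif1c (-2.61 and -2.34) and Kifc3 (-2.12 and -1.50) kept their direction at more than 2-fold.

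**Figure D4:**
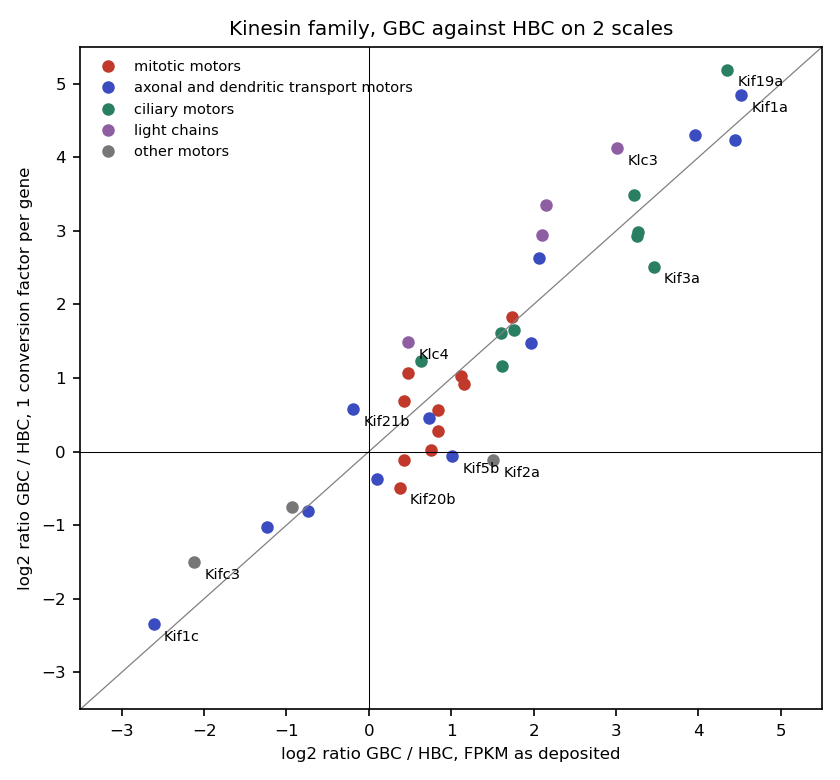
Log2 ratio of GBC over HBC for the 38 members with at least 1 FPKM in a library, as deposited (horizontal axis) and with 1 fragment-to-FPKM conversion per gene (vertical axis), coloured by role, with the line of equality. Kif2a and Kif5b fall from 1.51 and 1.01 to just under 0, the light chains lie above the line, and Kif1a, Kif19a, Kif1c and Kifc3 stay far from 0 on both axes.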

How the data were processed

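The authors deposited 1 table per mRNA library that, per the file headers, gives each gene an FPKM, a status and an interval, and Bowtie, TopHat, Cufflinks and the mouse build mm9 are named in the submitters' processing notes. Versions, options and the annotation were not given in the sources used here. Rows of 1 symbol were summed (each of the 45 members had 1 row, with status OK in all 3 libraries). A half-width of 2 times the FPKM over the square root of n gives an implied fragment number n. Of the rows with at most 100, n lay within 0.03 of a whole number for 77.6% (HBC), 69.1% (GBC) and 69.0% (mOSN). Such numbers and intervals cover counting error only, since PCR copies are not independent molecules.

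Ratios used a pseudocount of 1 FPKM. At least 2-fold is a log2 ratio of at least 1 in size, and a 4-fold call is one of at least 2 with at least 5 FPKM in the higher library. The expression filter was 1 FPKM in either library. No count test was run. The 4-fold calls were tried on simulated data, with large changes set into genes of high level and counting noise only. That simulation could not check changes of members of low level, variation between animals or the unequal conversion of the libraries. Partner lists and markers hold 182 symbols, of which 180 matched the files, 4 of them through synonyms. The members, lists, motifs and rules were chosen with earlier results of these data known. Named in full were members of at least 5 FPKM and mitotic motors of at least 1 FPKM in a library. Of each partner list up to 4 genes with the largest ratio of mOSN over GBC at 5 FPKM or more were named, with Cenpe and Kifap3 besides. The genes Mki67, Top2a, Pcna, Mcm2, Cbr2, Tekt2 and Foxj1, and the members of lower level, were named after their values were seen.

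Alternatives were pseudocounts of 0.1 and 5 FPKM, no filter or a filter of 5 FPKM, a common FPKM sum, median-of-ratios scaling, 1 fragment-to-FPKM conversion per gene, the highest row per symbol, and leaving out rows of status FAIL or LOWDATA. Promoters came from a RefSeq table of GRCm38.p6, a build other than that of the deposited coordinates, which were raised by 1 at the start to count from 1. Python 3.11.15, numpy 2.4.6, pandas 2.3.3 and matplotlib 3.10.9 were used.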

Additional observations from a re-analysis of the deposited data

How the results depend on the processing

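No paired analysis was possible because each population has 1 library, and no library could be left out. Over the lists of mitotic, transport and ciliary motors, the medians of mitotic motors stayed below 0 in both mOSN comparisons and those of ciliary motors above 0 in all comparisons, under every alternative that gave a value. At a filter of 5 FPKM no mitotic motor is left and no value could be given. Taking the highest row per symbol, or leaving out rows of status FAIL or LOWDATA, changed no member. Moves with a common sum mix the scaling of libraries with a smaller relative pseudocount and a lower filter. The causes of the following moves were not tested further. For mOSN against GBC, the 11 members at least 2-fold lower became 2 with a pseudocount of 5 FPKM and 4 with a filter of 5 FPKM. The 7 mitotic motors among them became 0 with a pseudocount of 5 and 11 with a common sum, and the 2 ciliary motors at least 2-fold higher became 1 with a pseudocount of 5. The mitotic median was -3.31 with a pseudocount of 0.1, -0.40 with 5, -1.02 without a filter and -2.67 with a common sum. The transport median was -0.31 with a common sum, -0.092 with median-of-ratios scaling and -0.27 with 1 conversion per gene. The ciliary median was 0.46 with a pseudocount of 5, 0.50 without a filter, 0.71 with a filter of 5 FPKM, and 0.14, 0.43 and 0.43 under those 3 scalings. For GBC against HBC, the 3 members at least 2-fold lower became 5 with a common sum and 5 with median-of-ratios scaling. The 3 mitotic motors at least 2-fold higher became 6 with a pseudocount of 0.1, 0 with 5, 6 with a common sum and 1 with median-of-ratios scaling, and the mitotic median became 1.53, 0.26 and 1.03 under the first 3 and 0.48 without a filter. The transport median was 0.71 with a pseudocount of 5, 0.29 with median-of-ratios scaling and 0.52 with 1 conversion per gene. The ciliary median was 3.74 and 1.68 with pseudocounts of 0.1 and 5, 2.49 without a filter, 2.76 with median-of-ratios scaling and 2.51 with 1 conversion per gene. Kif2a (-0.11) and Kif5b (-0.059) reversed their log2 ratio with 1 conversion per gene. For mOSN against HBC, the 5 members at least 2-fold lower became 2 with a pseudocount of 5 and 15 with a common sum. The 1 mitotic motor at least 2-fold lower became 2 with a pseudocount of 0.1, 0 with 5, 8 with a common sum and 2 with median-of-ratios scaling, and the mitotic median became -2.31, -0.31 and -1.59 under the first 3 and -0.39 without a filter. The transport median was 0.61 with a pseudocount of 5, and 0.40, 0.088 and 0.40 under the 3 scalings. The ciliary median was 3.87 and 1.74 with pseudocounts of 0.1 and 5, 3.01 with a filter of 5 FPKM, 3.03 with a common sum and 1.9998 with median-of-ratios scaling. Of 4-fold calls over all genes, 48.4% were higher in GBC against HBC and 31.5% with median-of-ratios scaling, and 60.3% were higher in mOSN against HBC, with 40.9% by median-of-ratios scaling and 49.3% with a common sum. Depth limits members of low level: in mOSN, Kif14, Kif2c, Kif4, Kif7 and Kif18b rest on 4, 4, 3, 2 and 1 implied fragments.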
